A study of Mus musculus with 4 samples.

Results

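Interferon response genes were followed in the spleens of 2 mice with B cell leukaemia and 2 wild type mice, with 1 array per mouse. The 37 genes were chosen by symbol, and 32 of them had a probe set assigned to that gene alone, out of 19297 genes measured in the series. Of these 32, 27 of 29 listed genes are linked mainly to type I interferon and 5 of 8 mainly to interferon gamma, although most respond to both to some degree. Probe sets carrying Isg15, Gbp2, Gbp6 or Igtp list other genes as well, so these 4 were not analysed here, and neither was Ifi44. No filter on dim values was applied, so each of the 32 entered the test. Irf1 had 2 probe sets, of which the brighter was used.

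The leukaemic mice were of genotype RBP-J flox/flox;Ren1dcre/cre, that is, homozygous for cre recombinase at the renin gene Ren1d, and were 107 (replicate 1) and 93 days old (replicate 2). The wild type mice were RBP-J flox/flox;Ren1d+/+, and were 80 and 81 days old. All 4 mice were 129Sv and were homozygous for floxed RBP-J, whose product binds DNA as the nuclear partner of Notch. In this model cre is made wherever the renin locus is active, and whole spleens were measured, which weighed 0.7 g and 0.47 g in leukaemic and 0.12 g and 0.16 g in wild type mice. Leukaemic replicate 2 was male and the other mice were female. Group cannot be told apart from age, spleen weight or cre at Ren1d.

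Type I interferons (the alpha and beta family) signal through the receptor chains IFNAR1 and IFNAR2 to a complex that holds STAT2 and IRF9 and binds the interferon-stimulated response element (ISRE) in its target promoters. Interferon gamma, made chiefly by natural killer (NK) and T cells, signals through IFNGR1 and IFNGR2, and many of its target promoters hold gamma-activated sites (GAS). In spleen, plasmacytoid dendritic cells are a known source of type I interferon, and a low level of signalling keeps many of these antiviral genes expressed without infection.

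Values are log2 expression per probe set, 1 unit being a 2-fold difference, and levels are compared only within a probe set. Across the series, 199 genes fell and 276 rose in leukaemic spleen at a limma adjusted p under 0.05. Of 5 precursor B cell markers 4 rose, with summed linear levels of 10568 and 10066 in leukaemic spleens, against 483 and 474 in wild type spleens; both T and B cell markers were measured in each mouse. Wild type replicate 2 stood apart in transcripts of exocrine pancreas, whose summed linear level over 9 marker genes was 43130 there, against 1109 in wild type replicate 1 and 1150 and 1166 in leukaemic replicates 1 and 2. Results are therefore also given against each wild type mouse alone.

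The type I linked genes lay mostly lower in leukaemic spleen, but only Oas3 passed the test. Differences were below 0 in 24 of 27 genes, against 56.13% of all genes, and their median was -0.36, against -0.03 over all genes. One gene was called lower (Oas3) and 0 higher, where 1.03% of all genes were called lower and 1.43% higher by the same limma fit; without adjustment, 10 were lower and 1 higher at p under 0.05, against 10.6% and 10% of all genes. In either direction 1 of the 32 members was called, against 2.46% of all genes. Both leukaemic values lay below both wild type values in 12 of 27 genes, against 26.2% of all genes, and above them in 1, against 23% of all genes. The call for Oas3 was lost without either wild type mouse, as were most or all calls in the series. Its difference was -1.25 without wild type replicate 1 and -0.89 without wild type replicate 2. Each such fit has 1 residual degree of freedom and assumes that the lone mouse of its group varies like the other group. In the fits without a leukaemic mouse, limma gave every gene the same variance, drawn from the wild type pairs of all genes. Some members were called lower in those fits, but none was tested against its own wild type gap. In whole spleen, fewer cells of an expressing type and less RNA per cell cannot be told apart.

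**Figure D1:**
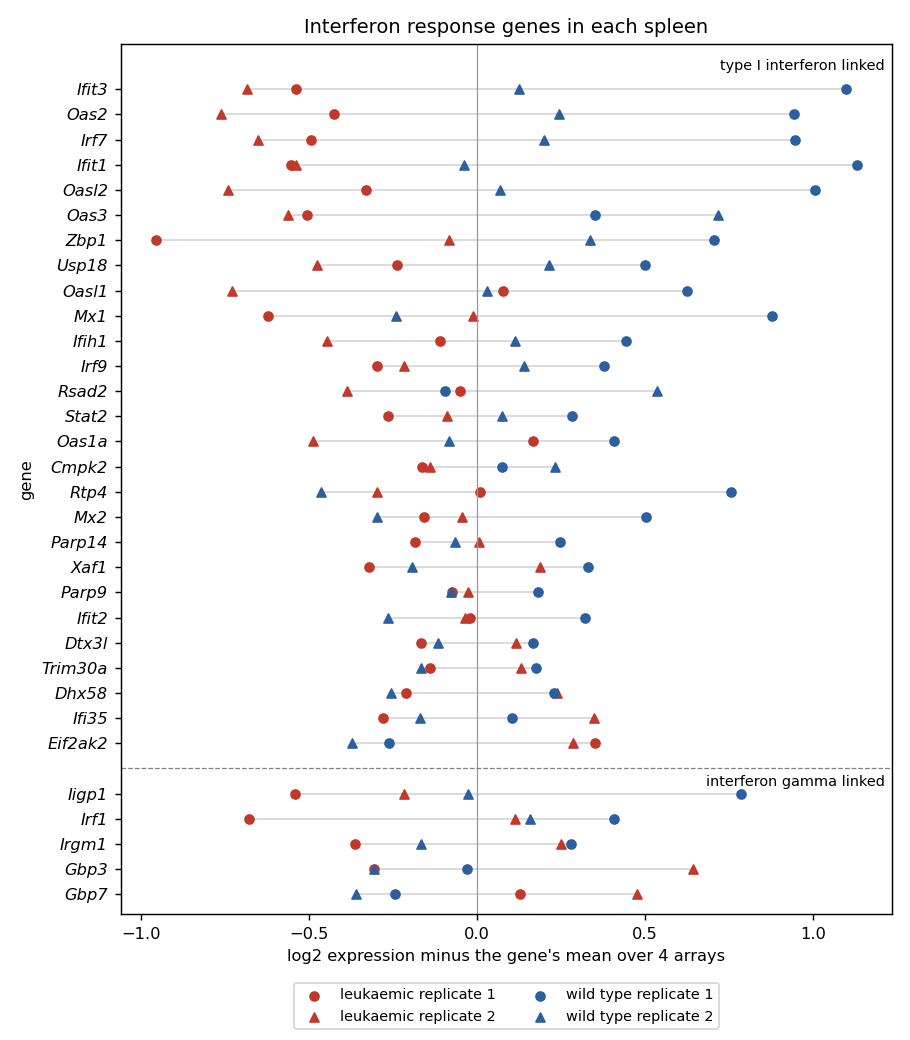
Expression of the 32 measured interferon response genes in each mouse, as log2 expression minus the gene's mean over the 4 arrays (x axis), with genes down the y axis ordered by group difference within the type I and interferon gamma linked classes. Red marks are leukaemic and blue marks wild type mice, circles replicate 1 and triangles replicate 2; wild type replicate 1 is the highest of the 4 mice in 24 of 32 genes.

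The oligoadenylate synthetases make 2-5A, the second messenger that activates RNase L. Oas3 had values of 8.17 and 8.11 in leukaemic spleens, against 9.02 and 9.39 in wild type spleens. Both leukaemic values lay well below both wild type values, and the wild type pair ran the opposite way to most of its family, with replicate 2 the higher. The difference was -1.07 (SE 0.17, limma adjusted p = 0.033), a 2.10-fold lower level. Its genomic neighbour Oas2 read 7.87 and 7.53 in leukaemic spleens, against 9.24 and 8.54 in wild type spleens. The groups were separate, yet wild type replicate 2 lay closer to the leukaemic values than replicate 1 did, and the difference of -1.19 (SE 0.25, limma adjusted p = 0.060) missed the threshold. The related Oasl2 read 8.76 and 8.35 in leukaemic spleens, against 10.10 and 9.16 in wild type spleens, a difference of -1.07 (SE 0.31, limma adjusted p = 0.12). Oasl1 (-0.65, SE 0.30) and Oas1a (-0.32, SE 0.26) overlapped between the groups. All 5 of these genes are on chromosome 5.

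IFIT1 binds viral RNA that lacks the host cap methylation, and Ifit2 and Ifit3 belong to the same gene family. Ifit3 had the lowest difference of all members, with 8.81 and 8.67 in leukaemic spleens, against 10.46 and 9.48 in wild type spleens (-1.22, SE 0.30, limma adjusted p = 0.079). Ifit1 read 7.44 and 7.45 in leukaemic spleens, against 9.13 and 7.95 in wild type spleens (-1.09, SE 0.34, limma adjusted p = 0.14). Both leukaemic mice were low and near one another, while the wild type mice differed by 0.98 for Ifit3 and 1.17 for Ifit1. Ifit2, next to Ifit3 on chromosome 19, showed no such pattern, with 8.29 and 8.27 in leukaemic spleens, against 8.63 and 8.04 in wild type spleens (-0.06, SE 0.21); its sign turned to 0.01 when arrays were centred on their medians.

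RefSeq promoters (GRCm38.p6, from 250 bases before to 50 after the annotated start) matched 22 of the 32 measured members, 18 of them type I linked. The ISRE core, searched for as GAAA, any 2 bases and GAAA on both strands with overlapping matches counted, occurred in 9 of these 18 promoters, against 3.9% of 15161 tested genes with a promoter; where a gene had several windows, any match counted. Shown with each match in capitals are the promoters of Ifit3, the member with the lowest difference, at chr19:34583279-34583578 (plus strand), and of Oas3, the member that passed the test, at chr5:120777610-120777909 (minus strand).
Ifit3: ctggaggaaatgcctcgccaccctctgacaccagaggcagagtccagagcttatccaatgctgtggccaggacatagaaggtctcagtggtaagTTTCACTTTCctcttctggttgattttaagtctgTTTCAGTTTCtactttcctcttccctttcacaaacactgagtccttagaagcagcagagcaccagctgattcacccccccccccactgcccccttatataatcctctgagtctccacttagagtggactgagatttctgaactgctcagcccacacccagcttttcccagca
Oas3: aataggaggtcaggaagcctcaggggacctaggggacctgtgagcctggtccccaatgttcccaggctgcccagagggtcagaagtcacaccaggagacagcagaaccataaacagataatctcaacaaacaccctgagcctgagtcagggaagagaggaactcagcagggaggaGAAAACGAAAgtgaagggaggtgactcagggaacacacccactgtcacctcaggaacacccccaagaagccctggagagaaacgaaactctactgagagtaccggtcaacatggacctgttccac
The matches of Ifit3 lie on the opposite strand and begin 156 and 122 bases before the start, and the match of Oas3 begins 75 bases before it. Type I linked members with the ISRE core had a median difference of -0.44 (n = 9) and those without it of -0.30 (n = 9), with 8 of 9 below 0 in each class. Over all members with a promoter the order was the other way, at -0.34 with the core (n = 12) and -0.41 without it (n = 10). Irf7 and Oasl2, both with differences beyond -1.0, held no match in this window. The ISRE core was not particular to the type I class, since 3 of 4 interferon gamma linked promoters (Gbp3, Gbp7 and Irgm1) also held it.

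Among the transcription factors of the pathway, Irf7, which amplifies the type I response, read 9.01 and 8.85 in leukaemic spleens, against 10.45 and 9.70 in wild type spleens. All leukaemic values were lower, and the difference was -1.15 (SE 0.25, limma adjusted p = 0.063), or 2.21-fold. Irf9, the DNA-binding partner of STAT2, read 10.30 and 10.38 in leukaemic spleens, against 10.98 and 10.74 in wild type spleens (-0.52, SE 0.15, limma adjusted p = 0.12). Stat2 read 9.56 and 9.74 in leukaemic spleens, against 10.11 and 9.90 in wild type spleens (-0.36, SE 0.15, limma adjusted p = 0.25). The groups were separate for these 3 factors, and each difference exceeded the gap between the mice of either group. Over all genes, 26.2% had both leukaemic values below both wild type values, and 36.6% had a difference larger than both gaps. Usp18, the protease that removes ISG15 and damps receptor signalling, had 9.73 and 9.49 in leukaemic spleens, against 10.46 and 10.18 in wild type spleens (-0.72, SE 0.17, limma adjusted p = 0.074).

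Nucleic acid sensors among the members differed from one another. Zbp1, a sensor of Z-form nucleic acid that can trigger cell death, read 8.15 and 9.02 in leukaemic spleens, against 9.81 and 9.44 in wild type spleens (-1.04, SE 0.29, limma adjusted p = 0.11); here the leukaemic mice were the pair that differed more. Ifih1 (MDA5), a sensor of long double-stranded RNA, read 9.27 and 8.94 in leukaemic spleens, against 9.83 and 9.50 in wild type spleens (-0.56, SE 0.18). Dhx58 (LGP2), its regulator, overlapped between groups at 9.13 and 9.58 in leukaemic spleens, against 9.57 and 9.08 in wild type spleens (0.03, SE 0.22; -0.01 after a second quantile normalization). Eif2ak2 (PKR), the kinase that halts translation on double-stranded RNA, was the single type I linked member with both leukaemic values on top, at 9.43 and 9.37 in leukaemic spleens, against 8.82 and 8.71 in wild type spleens. Its difference of 0.64 (SE 0.14, limma adjusted p = 0.064) was several times the gap within either group and did not pass.

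Among the other antiviral genes, several differed more between the wild type mice than between the groups. Rtp4, a negative regulator of the response, had 9.73 and 9.42 in leukaemic spleens, against 10.47 and 9.25 in wild type spleens, so that wild type replicate 2 was the lowest of the 4. The dynamin-like GTPase gene Mx1, disrupted in many laboratory strains, had 6.90 and 7.51 in leukaemic spleens, against 8.40 and 7.28 in wild type spleens. Mx2 had 7.20 and 7.31 in leukaemic spleens, against 7.86 and 7.06 in wild type spleens. In all 3 genes the groups overlapped, because wild type replicate 1 was high and replicate 2 was among the low values. Rsad2 (viperin), which makes a chain-terminating nucleotide from CTP, and its adjacent gene Cmpk2, a nucleotide kinase that supplies it, ran the other way within wild type. Rsad2 read 11.11 and 10.77 in leukaemic spleens, against 11.07 and 11.70 in wild type spleens, and Cmpk2 read 9.46 and 9.48 in leukaemic spleens, against 9.69 and 9.85 in wild type spleens. The adjacent chromosome 16 genes Parp14, Dtx3l and Parp9, whose products act in ADP-ribosylation and ubiquitination, had differences of -0.18, -0.05 and -0.10 with overlapping groups, as did Xaf1 (-0.14), Trim30a (-0.01) and Ifi35 (0.07). Dtx3l and Trim30a turned to 0.01 and 0.06 after median centring.

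**Figure D2:**
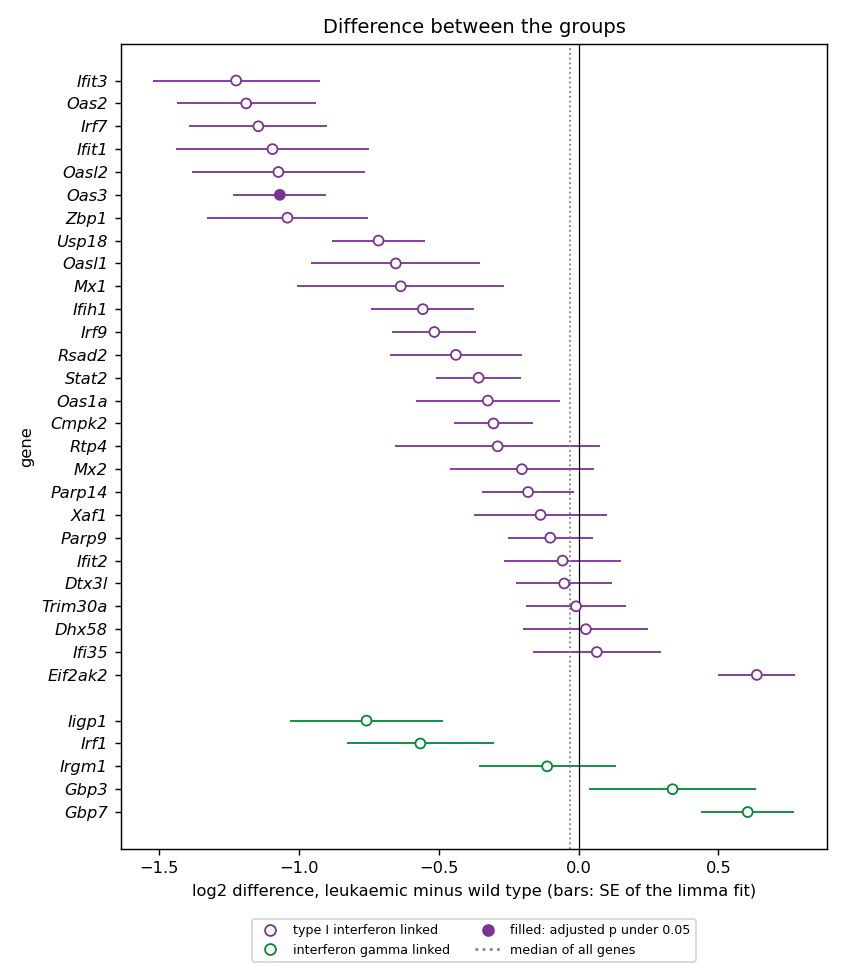
Leukaemic minus wild type difference in log2 expression (x axis) for each measured member (y axis), with bars of 1 SE from the limma fit and n = 2 mice per group. Oas3, at -1.07, is the filled point, and the dotted line marks the median of all genes at -0.03.

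The median difference between the 2 wild type mice, taken with its sign, was about as large as the median difference between the groups. For type I linked genes the median difference of wild type replicate 2 minus replicate 1 was -0.37, beside -0.36 for leukaemic minus wild type, while over all genes it was 0.04. Replicate 2 was the lower in 24 of 27 type I linked genes, against 44.4% of all genes, and lower by over 0.5 in 11 of 27, against 3.42% of all genes. Wild type replicate 1 was the highest of the 4 mice in 21 of 27, against 20.9% of all genes. The exceptions, with replicate 2 higher, were Rsad2 (0.63), Oas3 (0.36) and Cmpk2 (0.16). The largest gaps were those of Rtp4 (-1.22), Ifit1 (-1.17) and Mx1 (-1.12). The median size of the gap was 0.48 in wild type, against 0.20 over all genes; between the 2 leukaemic mice it was 0.27, against 0.12 over all genes. The group difference exceeded the gaps within both groups in 12 of 27 type I linked genes and in 36.6% of all genes. Exocrine pancreas transcripts also differed between these mice, as given above, and the summed level of 5 erythroid markers was 23258 in wild type replicate 2 and 16160 in replicate 1; their part in the wild type gap was not tested.

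**Figure D3:**
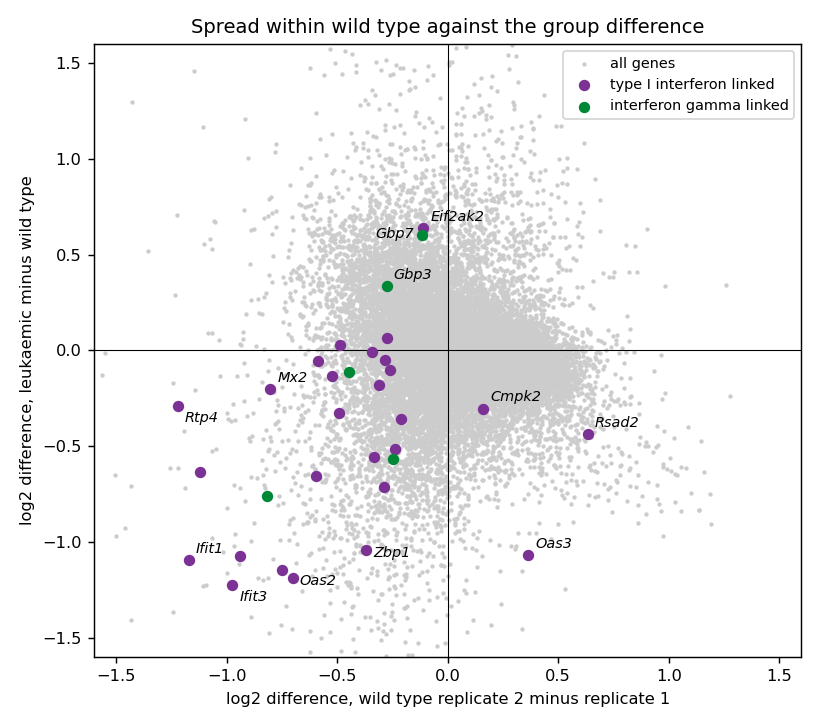
Wild type replicate 2 minus replicate 1 (x axis) against leukaemic minus wild type (y axis), both as log2 differences, for type I linked members (purple), interferon gamma linked members (green) and all genes (grey; 174 of 19297 lie outside the axes). Most members sit left of 0, including Ifit1 at -1.17 and Rtp4 at -1.22, while Oas3 and Rsad2 sit to the right at 0.36 and 0.63.

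Set against each wild type mouse alone, the type I linked genes had a median below 0 in every pairing, but the counts stood above those of all genes mainly against wild type replicate 1. Against wild type replicate 1, medians were -0.56 for leukaemic replicate 1 and -0.60 for leukaemic replicate 2, with 25 and 24 of 27 genes below 0, against 8249 and 9284 of all 19297 genes. Against wild type replicate 2, they were -0.22 and -0.36, with 18 and 15 of 27 below 0, against 11266 and 11835 of all 19297 genes, so that 15 of 27 was a smaller share than that of all genes. The medians over all genes in these 4 pairings lay between -0.10 and 0.04, and the pairings share mice, so they are not independent. In the fit without wild type replicate 2, the list's median was -0.60, and without wild type replicate 1 it was -0.25. Rtp4, Mx2, Ifit2 and Xaf1 had differences of 0.32, 0.20, 0.24 and 0.13 without wild type replicate 1, against negative ones with both wild type mice. Ifit3, Oas2, Irf7 and Oas3 kept differences of -0.74, -0.84, -0.77 and -1.25 in that fit. They were not called there, and few genes of the series were.

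**Figure D4:**
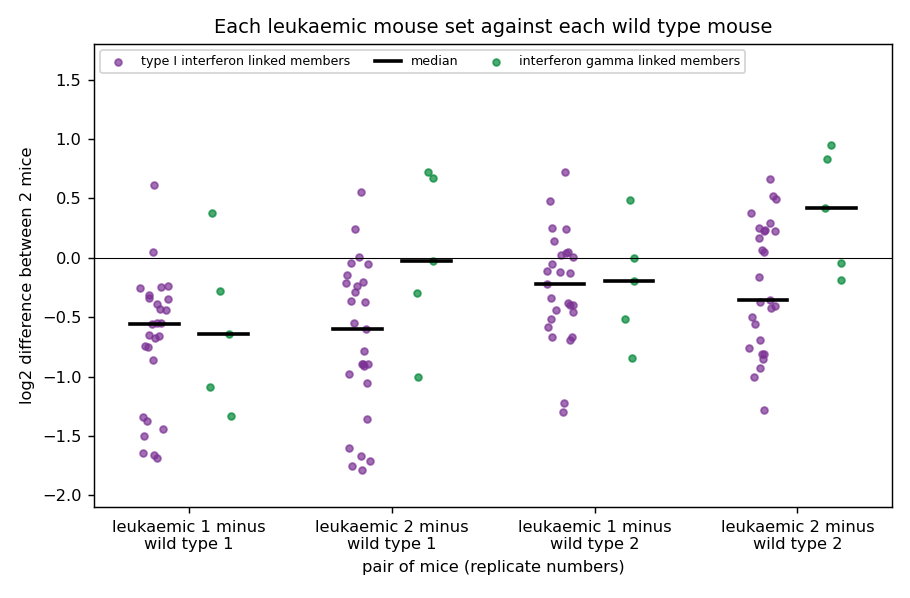
Log2 difference between each leukaemic and each wild type mouse (x axis, 4 pairings) for every measured member (points), with black bars at the median of the type I (purple) and interferon gamma linked (green) genes. Type I medians run from -0.60 to -0.22, and interferon gamma medians from -0.64 to 0.42.

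The interferon gamma linked genes went both ways and none passed the test. Of the 5 measured, 3 had differences below 0 and 2 above, with a median of -0.11, against -0.03 over all genes. By limma 0 were called in either direction, where 1.03% and 1.43% of all genes were called lower and higher. At an unadjusted p under 0.05, 1 was lower and 1 higher, against 10.6% and 10% of all genes. Iigp1, an immunity-related GTPase that attacks the vacuoles of intracellular parasites, read 7.63 and 7.95 in leukaemic spleens, against 8.95 and 8.14 in wild type spleens (-0.76, SE 0.27, limma adjusted p = 0.18). The transcription factor gene Irf1 read 9.74 and 10.53 in leukaemic spleens, against 10.82 and 10.58 in wild type spleens (-0.57, SE 0.26, limma adjusted p = 0.29). Irf1 in leukaemic replicate 2 lay just below wild type replicate 2 (-0.04), and its dimmer probe set read 7.14 and 7.40 in leukaemic spleens, against 7.60 in both wild type spleens. Irgm1, which regulates the other immunity-related GTPases, overlapped between groups at 10.27 and 10.88 in leukaemic spleens, against 10.91 and 10.46 in wild type spleens.

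The guanylate-binding proteins are GTPases that coat pathogen vacuoles. Gbp7 read 10.52 and 10.86 in leukaemic spleens, against 10.14 and 10.03 in wild type spleens, and both leukaemic values were the higher (0.60, SE 0.17, limma adjusted p = 0.10). Gbp3, adjacent to it on chromosome 3, read 8.80 and 9.75 in leukaemic spleens, against 9.07 and 8.80 in wild type spleens, a difference of 0.34 (SE 0.30) that rests on leukaemic replicate 2 and was -0.14 without it. Relatives outside the chosen genes, named here after their values were seen, had differences of -0.52 (Gbp5, also on chromosome 3) and of -0.76, -0.79, -0.33 and -0.37 (Gbp4, Gbp8, Gbp9 and Gbp11 on chromosome 5), and none was called. These genes are close paralogues, so signal may be shared between their probe sets.

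The GAS core TTCNNNGAA, which reads the same on both strands, occurred in 2 of 4 interferon gamma linked promoters in the RefSeq table, against 9.01% of 15161 tested genes with a promoter. Both are shown with matches in capitals, since their genes differed in opposite directions. The promoter of Irf1 at chr11:53769764-53770063 (plus strand) holds 1 GAS core, and that of Gbp7 at chr3:142530086-142530385 (plus strand) holds 2 GAS cores followed by an ISRE core on the opposite strand.
Irf1: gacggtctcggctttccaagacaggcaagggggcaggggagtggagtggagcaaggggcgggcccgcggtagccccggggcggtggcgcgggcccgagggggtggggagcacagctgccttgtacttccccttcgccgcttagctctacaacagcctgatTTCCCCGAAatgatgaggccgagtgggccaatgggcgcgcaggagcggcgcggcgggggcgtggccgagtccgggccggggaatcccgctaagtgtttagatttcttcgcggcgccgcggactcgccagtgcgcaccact
Gbp7: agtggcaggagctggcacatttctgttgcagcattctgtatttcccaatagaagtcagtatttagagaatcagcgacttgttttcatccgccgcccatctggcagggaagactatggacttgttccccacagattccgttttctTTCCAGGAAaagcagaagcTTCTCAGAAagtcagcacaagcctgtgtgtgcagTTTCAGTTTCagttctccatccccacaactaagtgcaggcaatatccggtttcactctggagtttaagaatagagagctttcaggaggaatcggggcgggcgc
Their differences had opposite signs, -0.57 for Irf1 and 0.60 for Gbp7. In Irf1 the match begins 90 bases before the start, and in Gbp7 the GAS cores begin 106 and 87 bases and the ISRE core 53 bases before it. The GAS core also occurred in 4 of 18 type I linked promoters, those of Oas1a, Ifit2, Ifi35 and Eif2ak2.

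The leukaemic mice also differed from one another. Leukaemic replicate 2 was higher than replicate 1 in 5 of 5 interferon gamma linked genes, with a median difference of 0.61. It was higher in 14 of 27 type I linked genes, with a median of 0.02. Over all genes it was higher in 44.3%, with a median of -0.03. The median size of the gap was 0.61 in the interferon gamma linked genes and 0.27 in the type I linked genes, against 0.12 over all genes; the difference between the classes was not tested. Gbp3 (0.95) and Irf1 (0.79) had the widest gaps of the first class. Within the type I class, Zbp1 was 0.87 higher and Oasl1 0.81 lower in leukaemic replicate 2. T cell and NK cell markers were also higher in that mouse, with summed linear levels of 5449 in leukaemic replicate 2 and 3774 in replicate 1 over 8 T cell genes, and of 609 and 398 over 6 NK cell genes. By gene, leukaemic replicate 2 was the higher in 7 of 8 T cell, 6 of 6 NK cell, 7 of 7 neutrophil and 5 of 5 mature B cell markers. Macrophage markers were higher there in 5 of 10, with sums of 16122 in leukaemic replicate 2 and 16717 in replicate 1. The part of these cells in the gap was not tested.

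Upstream of these genes, no interferon, receptor or kinase gene passed the test. Of 15 measured ligand genes 0 were called by limma in either direction (1.03% lower and 1.43% higher over all genes). At an unadjusted p under 0.05 there was 1, where 10.6% of all genes were lower and 10% higher. Differences ran from -0.43 to 0.10. Ifng read 6.64 and 6.81 in leukaemic spleens, against 6.98 and 7.02 in wild type spleens (-0.28, SE 0.14). Ifnb1 read 5.84 and 5.61 in leukaemic spleens, against 5.68 and 5.85 in wild type spleens (-0.05, SE 0.15). The smallest p values of the list were those of Ifna14 (-0.43, SE 0.14) and Ifna16 (-0.36, SE 0.16), both alpha interferons and not called. Whether probe sets this dim rise above background was not assessed. Of the 8 receptor and kinase genes 0 were called, and all 8 differences lay between -0.40 and -0.09. An unadjusted p under 0.05 was found in 2 of them, beside the same shares of all genes (10.6% lower and 10% higher). The receptor chains had differences of -0.16 (Ifnar1), -0.40 (Ifnar2), -0.24 (Ifngr1) and -0.09 (Ifngr2), and the Janus kinases of -0.28 (Jak1), -0.37 (Jak2) and -0.34 (Tyk2). Leukaemic replicate 2 was above replicate 1 in 8 of 8. Of 4 other interferon regulatory factors measured, 0 were called; Irf8, which drives myeloid and plasmacytoid dendritic cell development, read 10.41 and 10.97 in leukaemic spleens, against 11.47 and 11.34 in wild type spleens (-0.71, SE 0.21), Irf5, which acts downstream of Toll-like receptors, differed by -0.57 (SE 0.21), and Irf2, a repressor of the response, differed by -0.05 (SE 0.15).

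Of 6 negative regulators 1 fell and 5 did not pass, where 1.03% of all genes were called lower and 1.43% higher. Ptpn6 (SHP-1), a phosphatase that restrains Janus kinase and antigen receptor signalling, read 10.77 and 10.74 in leukaemic spleens, against 11.57 and 11.51 in wild type spleens (-0.78, SE 0.13, limma adjusted p = 0.040). Socs1, induced by interferons to block the kinases, read 8.16 and 8.17 in leukaemic spleens, against 8.29 and 8.46 in wild type spleens (-0.21, SE 0.14). Of 9 nucleic acid sensors and adaptors 1 fell, Tlr9, the endosomal receptor for unmethylated DNA, at 9.15 and 9.46 in leukaemic spleens, against 10.41 and 10.34 in wild type spleens (-1.07, SE 0.16, limma adjusted p = 0.030). In both genes the leukaemic values lay below both wild type values by more than either within-group gap. The other 8 sensors and adaptors did not pass, with differences from -1.20 to 0.16.

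Further target genes outside the chosen set were counted in the same fit, where 1.03% of all genes were called lower and 1.43% higher. Of 29 other type I linked genes 0 were called by limma, with a median of -0.28 and 22 below 0; the smallest p values there were those of Lgals9, a galectin with a difference of 1.05 (SE 0.21, adjusted p = 0.059), and of Slfn5, a Schlafen family member with -0.82 (SE 0.19, adjusted p = 0.069). Wild type replicate 2 was below replicate 1 in 25 of these 29, with a median of -0.36, close to the value in the chosen type I linked genes. All these lists were chosen with earlier results of these data known, so this is no independent check. Of 19 other interferon gamma linked genes 3 fell and 16 did not pass, with a median of -0.33. Among those that fell was Ciita, the activator of major histocompatibility complex class II genes, at 8.49 and 9.39 in leukaemic spleens, against 10.53 and 10.40 in wild type spleens (-1.53, SE 0.28, limma adjusted p = 0.047). The chemokine genes Cxcl9 and Cxcl10, whose products attract T cells, fell as well. Cxcl9 read 8.51 and 9.14 in leukaemic spleens, against 10.41 and 10.16 in wild type spleens (-1.46, SE 0.23, limma adjusted p = 0.033). Cxcl10 read 8.53 and 8.77 in leukaemic spleens, against 10.00 and 10.12 in wild type spleens (-1.41, SE 0.15, limma adjusted p = 0.013). In all 3 genes both leukaemic mice lay below both wild type mice, with leukaemic replicate 1 the lowest. The calls of these 3 genes, and those of Ptpn6, Tlr9 and Oas3, were lost without wild type replicate 2, as was every other call in the series. That loss is therefore not particular to these genes. Their dependence on other settings was not examined gene by gene.

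**Figure D5:**
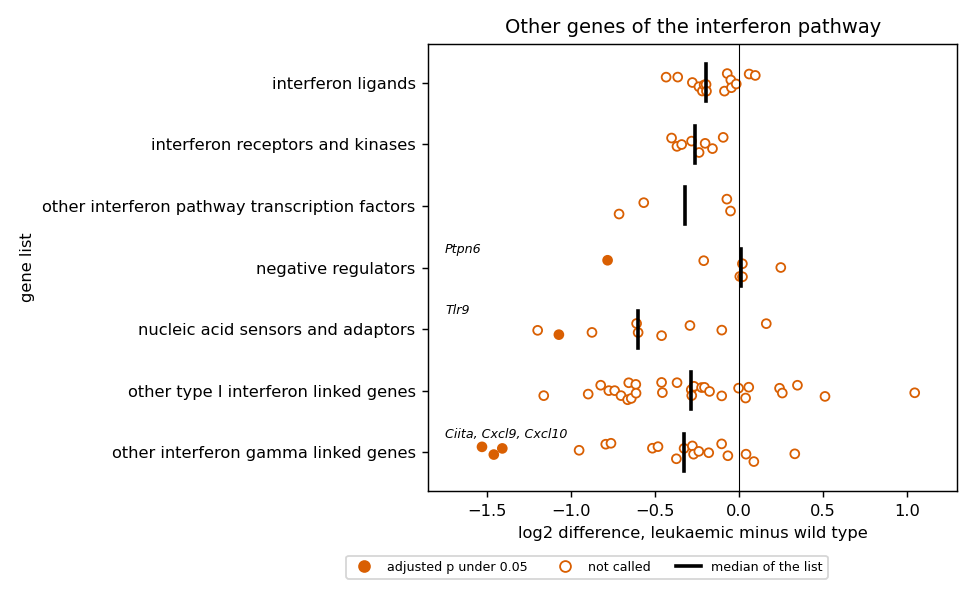
Leukaemic minus wild type difference in log2 expression (x axis) for other genes of the interferon pathway by list (y axis), with filled points for genes at an adjusted p under 0.05, open points for the rest and black bars at list medians. Filled points are Ptpn6, Tlr9, Ciita, Cxcl9 and Cxcl10, and the medians lie between -0.60 for sensors and adaptors and 0.01 for negative regulators.

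Markers of cells that make or answer interferons differed in how many passed the test, all calls among those given here being lower in leukaemic spleen. Over all genes, 1.03% were called lower and 1.43% higher. These marker calls were also lost without wild type replicate 2, as was every call in the series. Of 3 plasmacytoid dendritic cell markers 3 fell, and their summed linear level was 460 and 490 in leukaemic spleens, against 1745 and 1301 in wild type spleens. Of 6 NK cell markers 3 fell and 0 rose, with sums of 398 and 609 in leukaemic spleens, against 1791 and 1291 in wild type spleens. Among them Klrb1c, not called, had both leukaemic values above both wild type values (0.29, SE 0.16). Its probe set was dim, at 5.14 and 5.43 in leukaemic spleens, against 4.92 and 5.07 in wild type spleens. Whether it rises above background was not assessed. Of 8 T cell markers 5 fell, with sums of 3774 and 5449 in leukaemic spleens, against 14176 and 10952 in wild type spleens. Of 10 macrophage markers 0 were called, with sums of 16717 and 16122 in leukaemic spleens, against 23686 and 19582 in wild type spleens. Of 5 mature B cell markers 2 fell, with sums of 11252 and 15535 in leukaemic spleens, against 23779 and 19598 in wild type spleens. Of 7 neutrophil markers 2 fell, with sums of 7525 and 12380 in leukaemic spleens, against 18673 and 18748 in wild type spleens. In each of these lists except that of neutrophils wild type replicate 1 had the highest sum of the 4 mice, as it had for the type I linked genes, whose sums were 18866 and 19545 in leukaemic spleens, against 28034 and 22511 in wild type spleens. The part of these cells in the interferon gene differences was not tested.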

How the data were processed

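Spleen RNA of 4 mice was hybridised to Affymetrix whole-transcript arrays. Values are on the log2 scale as the authors deposited them, with each probe set given once per array; RMA, R 2.15.0 and limma 3.12.1 are named in the submitters' processing notes, with settings and order not given in the sources used here. RMA is meant to equalise array distributions, so a shift shared by most genes may be hidden. The deposited values were not fully equalised, with array medians of 7.96 in both leukaemic and 8.03 and 8.02 in wild type spleens. Precision is limited by there being only 4 arrays.

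Of 23309 probe sets, 20729 carried 1 gene symbol in the platform annotation, 1174 several and 1406 none; names came from the first class only. Groups were taken from sample titles. The labels call the replicates biological and give each its own age and spleen weight. limma 3.58.1 (R 4.3.3, lmFit and eBayes, no covariate) was fitted to the probe sets with 1 symbol, the probe set with the highest 4-array mean was kept per gene, and p-values were adjusted by Benjamini-Hochberg over 19297 genes, with calls at 0.05. The fit had 2 residual and 4.83 prior degrees of freedom. Values are given per mouse, and SE is that of the moderated fit. The smallest two-sided exact permutation p of 2 against 2 mice is 0.333, so none is given for single genes. Lists are described by counts and medians, without a set test. The scripts were tested on simulated data.

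The members, their classes and all lists were chosen with earlier results of these data known. The rule for naming took all members, each called pathway gene, 13 fixed ligand, receptor, kinase and regulator genes, and the 2 genes of smallest p in a list without calls. Promoters came from RefSeq (GRCm38.p6) and were searched with Python 3.11.15. Alternatives covered centring, quantile normalization, dim probe sets, the probe set per gene, all rows in the fit, the variance prior, the replicate number as a block and each mouse left out.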

Additional observations from a re-analysis of the deposited data

How the results depend on the processing

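Oas3 was called in 8 of 11 alternatives. In 2 of these a leukaemic mouse was left out, and every gene took the same variance, drawn from the wild type pairs of all genes. A second quantile normalization lost the call (limma adjusted p = 0.061). That normalization called 93 genes lower and 168 higher, and 0 members. A variance prior with trend and robust estimation gave 456 lower and 509 higher, with 4 members lower and 1 higher (Eif2ak2). The replicate block gave 908 lower and 785 higher, with 10 members lower and 1 higher; same-numbered mice share only a number (correlation of their deviations over 20729 probe sets -0.09), so it stands only here.

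With each mouse left out, 0 to 593 genes were called lower and 0 to 450 higher, and 0 to 9 members lower and 0 higher. Without wild type replicate 1 these were 26 and 12 genes with 0 members, and without wild type replicate 2 they were 0 and 0 genes (3142 at an unadjusted p under 0.05), with 16 members lower and 1 higher at an unadjusted p under 0.05. The prior degrees of freedom were 2.79 in both fits lacking a wild type mouse and infinite in both lacking a leukaemic mouse. The median of the type I linked genes ran from -0.60 to -0.25 and that of the interferon gamma linked genes from -0.42 to 0.19.

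Signs of uncalled members turned in these fits, in ranges of -0.22 to 0.27 for Dhx58, -0.19 to 0.0906 for Dtx3l, -0.14 to 0.81 for Gbp3, -0.25 to 0.38 for Ifi35, -0.35 to 0.24 for Ifit2, -0.42 to 0.19 for Irgm1, -0.60 to 0.20 for Mx2, -0.65 to 0.0032 for Oas1a, -0.23 to 0.0284 for Parp9, -0.90 to 0.32 for Rtp4, -0.18 to 0.16 for Trim30a and -0.40 to 0.13 for Xaf1. Median centring turned Dtx3l (0.0136), Ifit2 (0.0078) and Trim30a (0.0558), and quantile normalization turned Dhx58 (-0.0099). The cause of these changes was not tested. Leaving out dim probe sets kept all 32 members.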
